A study of Homo sapiens with 12 samples.

Results

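The genes described here are 10 members of the NODAL pathway and its surroundings in human embryonic stem cells: the ligands NODAL and GDF3, the co-receptor TDGF1, the secreted antagonists LEFTY1, LEFTY2 and CER1, the nuclear partner FOXH1, the feedback inhibitors PMEPA1 and SKIL, and TMEM63A, which lies beside LEFTY1 and LEFTY2 on chromosome 1. They were taken by name, as 10 of the 27130 genes in the deposited table, and the list was selected from measured values of these same 4 groups. Their values are therefore given as a description, with no p-values. The cells were H1 (WA01), a widely used embryonic stem cell line of human origin, and poly(A) RNA was sequenced in 4 groups of 3 libraries. The first group carried a homozygous ZNF263 knockout together with overexpression of the transcription factor ZIC2 (KO+ZIC2), and the second carried the homozygous ZNF263 knockout (KO). The third overexpressed ZNF263, a zinc finger transcription factor (OE), and the fourth was wild type (WT). The library names of the KO and WT groups also hold the tag vec, and those of both knockout groups hold the same line number. The labels do not say whether the knockout line is 1 clone, or whether replicate libraries derive from different cultures, so error terms measure only the spread between these samples.

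NODAL is a secreted ligand of the TGF-beta superfamily that signals through activin receptors and a co-receptor of the EGF-CFC family, here TDGF1, also called CRIPTO. The receptors phosphorylate SMAD2 and SMAD3, which enter the nucleus with SMAD4 and act at genes bound by partners such as FOXH1. Among the genes switched on in this way are NODAL itself and the LEFTY antagonists, so the pathway feeds back on itself in both directions. Human embryonic stem cells depend on activin or NODAL signalling to stay pluripotent, and a stronger signal is known to lead them toward mesendoderm.

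Promoter sequences of 6 of the 10 genes were found in the RefSeq table of GRCh38.p14, namely those of NODAL, CER1, GDF3, PMEPA1, SKIL and TMEM63A. The windows searched were the 250 bases before each annotated start. Each was searched on both strands for AATNCACA, a form of the FOXH1 consensus, for CAGCAGG, a core of the ZIC consensus, for GGAGGA, a repeat within the GA-rich consensus known for ZNF263, and for the SMAD palindrome GTCTAGAC. Over all 35116 promoters of that table and length, AATNCACA matched in 2.89%, CAGCAGG in 8.48%, GGAGGA in 31.8% and GTCTAGAC in 0.18%. The 4 windows printed here are the one of NODAL, which leads the description, and those of the 3 genes with a match to AATNCACA. Capitals mark the matches, and every sequence runs 5′ to 3′ on the gene's own strand, which is the minus strand for all 4.
NODAL promoter, chr10:70441682-70441931: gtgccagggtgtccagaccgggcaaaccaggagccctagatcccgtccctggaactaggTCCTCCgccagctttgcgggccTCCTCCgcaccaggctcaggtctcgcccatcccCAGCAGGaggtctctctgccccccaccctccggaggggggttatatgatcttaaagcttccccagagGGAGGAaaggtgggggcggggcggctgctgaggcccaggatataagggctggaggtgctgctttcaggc
CER1 promoter, chr9:14722734-14722983: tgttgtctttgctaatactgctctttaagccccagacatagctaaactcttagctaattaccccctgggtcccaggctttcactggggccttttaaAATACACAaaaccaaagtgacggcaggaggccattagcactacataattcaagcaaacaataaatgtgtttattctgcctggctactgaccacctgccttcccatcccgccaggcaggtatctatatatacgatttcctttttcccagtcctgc
GDF3 promoter, chr12:7695776-7696025: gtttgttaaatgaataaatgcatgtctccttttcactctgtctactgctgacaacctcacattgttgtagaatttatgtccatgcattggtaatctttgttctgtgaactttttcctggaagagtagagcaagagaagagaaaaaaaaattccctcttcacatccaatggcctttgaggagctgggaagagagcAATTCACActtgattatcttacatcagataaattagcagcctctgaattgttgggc
PMEPA1 promoter at the second of 4 starts, chr20:57710578-57710827: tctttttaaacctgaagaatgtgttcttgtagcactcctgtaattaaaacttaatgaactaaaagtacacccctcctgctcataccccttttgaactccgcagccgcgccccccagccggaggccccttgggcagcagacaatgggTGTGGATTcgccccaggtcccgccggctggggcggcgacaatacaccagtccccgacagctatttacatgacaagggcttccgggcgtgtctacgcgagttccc

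In the NODAL window CAGCAGG lies at bases -136 to -130 from the start, GGAGGA lies at -69 to -64, and its reverse complement TCCTCC lies at -191 to -186 and at -169 to -164. In the CER1 window AATACACA lies at -154 to -147. The GDF3 window holds AATTCACA at -56 to -49. In the printed PMEPA1 window the reverse complement TGTGGATT lies at -104 to -97. Of the other PMEPA1 windows, that of the first start holds CAGCAGG at -194 to -188 and TCCTCC at -93 to -88 and at -31 to -26, that of the third holds TCCTCC at -193 to -188, and that of the fourth held no match. None of these matches overlaps another. The TMEM63A window holds GGAGGA at -171 to -166, and the SKIL window held no match to any of the 4 letter strings. A match describes the letters only and was not tested as a binding site.

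All 10 genes passed the expression filter, which kept 15437 genes. Levels are in CPM, the counts of a gene scaled to the library total after TMM correction, and a gene is written as called where its adjusted p in edgeR's quasi-likelihood test over those 15437 genes was under 0.05. The libraries held 17175183 to 21804410 counts, except KO replicate 1 with 43464609. ZNF263 itself had 31.1 ± 0.129 CPM in KO libraries and 39.2 ± 1.35 CPM in WT libraries (SD, n = 3 each), and the labels do not say which part of the gene was altered, so this level does not check the knockout. In OE libraries ZNF263 had 239.6 ± 18.0 CPM, which was 6.11-fold the WT level. ZIC2 had 2040 ± 175 CPM in KO+ZIC2 libraries, 13.1-fold the 156 ± 3.81 CPM of KO libraries, and WT libraries had 209 ± 3.74 CPM (SD, n = 3 each). The 10 pluripotency markers examined, among them POU5F1, SOX2 and NANOG, were all above 1 CPM in every group, with summed levels of 8648 to 8825 CPM in KO+ZIC2, 9030 to 9244 in KO, 9018 to 9202 in OE and 8821 to 8887 in WT libraries. Single markers did differ. In KO against WT 4 of the 10 were called higher and 2 lower, beside 20.0% and 18.5% of all genes tested. In KO+ZIC2 against KO 3 were called lower and 0 higher, beside 3.35% and 4.99%. In OE against WT 1 was called higher and 0 lower, beside 0.317% and 0.447%.

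NODAL (chr10:72191692-72207704 in hg19, minus strand) was highest in KO, lower in KO+ZIC2, lower again in WT and lowest in OE. It had 51.9, 59.7 and 50.6 CPM in the KO+ZIC2 libraries and 66.1, 78.7 and 62.4 CPM in the KO libraries. In the OE libraries it had 15.2, 15.9 and 15.1 CPM, against 25.2, 25.7 and 25.4 CPM in the WT libraries. No library of any group overlapped one of another group, although KO+ZIC2 replicate 2, at 59.7 CPM, lay close to KO replicate 3, at 62.4 CPM. The KO level was 2.71-fold the WT level, a log2 difference of 1.44 ± 0.07 (SE). The OE level was 0.605 times that of WT, a log2 difference of -0.72 ± 0.09 (SE). In KO+ZIC2 the level was 0.786 times that of KO, a log2 difference of -0.35 ± 0.07 (SE), and it was still 2.13-fold that of WT.

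The other ligand, GDF3 (chr12:7842378-7848389, minus strand), is a TGF-beta family member expressed in pluripotent cells. Its libraries had 12.4, 9.55 and 11.95 CPM in KO+ZIC2 and 17.4, 19.4 and 15.9 CPM in KO. In OE it had 14.9, 14.0 and 13.3 CPM, against 12.7, 13.3 and 12.4 CPM in WT. KO libraries stood above those of the other groups. OE lay above WT by a narrow margin, with 13.34 CPM in OE replicate 3 and 13.33 CPM in WT replicate 2. GDF3 was 1.37-fold the WT level in KO, a log2 difference of 0.45 ± 0.09 (SE). With ZIC2 it was 0.646 times the KO level, a log2 difference of -0.63 ± 0.09 (SE), which put its mean of 11.3 CPM below the WT mean of 12.8 CPM. The log2 difference of KO+ZIC2 from WT, -0.18 ± 0.10 (SE), was not called. Unlike NODAL, GDF3 was not lower in OE than in WT, with a log2 difference of 0.14 ± 0.09 (SE).

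TDGF1 (chr3:46616045-46623952, plus strand), the co-receptor that NODAL and GDF3 use, was by far the most abundant of the 10 genes per length and varied least between groups. It had 722, 776 and 755 CPM in KO+ZIC2 libraries and 724, 774 and 743 CPM in KO libraries. The OE libraries had 686, 678 and 688 CPM, and the WT libraries had 692, 675 and 663 CPM. All libraries of both knockout groups lay above all OE and WT libraries, KO and KO+ZIC2 overlapped each other, and so did OE and WT. The KO level was 1.103-fold that of WT, a log2 difference of 0.14 ± 0.03 (SE), and KO+ZIC2 differed from KO by 0.01 ± 0.03 on the log2 scale. Of the 50-base windows of the longest protein-coding TDGF1 transcript in GENCODE release 29, 41.15% also occur in TDGF1 pseudogenes or another gene elsewhere. The pseudogene TDGF1P3 had 7.01 ± 1.31 CPM in KO+ZIC2, 6.86 ± 0.191 in KO, 5.71 ± 0.279 in OE and 5.81 ± 0.876 in WT libraries (SD, n = 3 each) and was called in no comparison, with edgeR adjusted p of 0.125 for KO against WT.

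**Figure D1:**
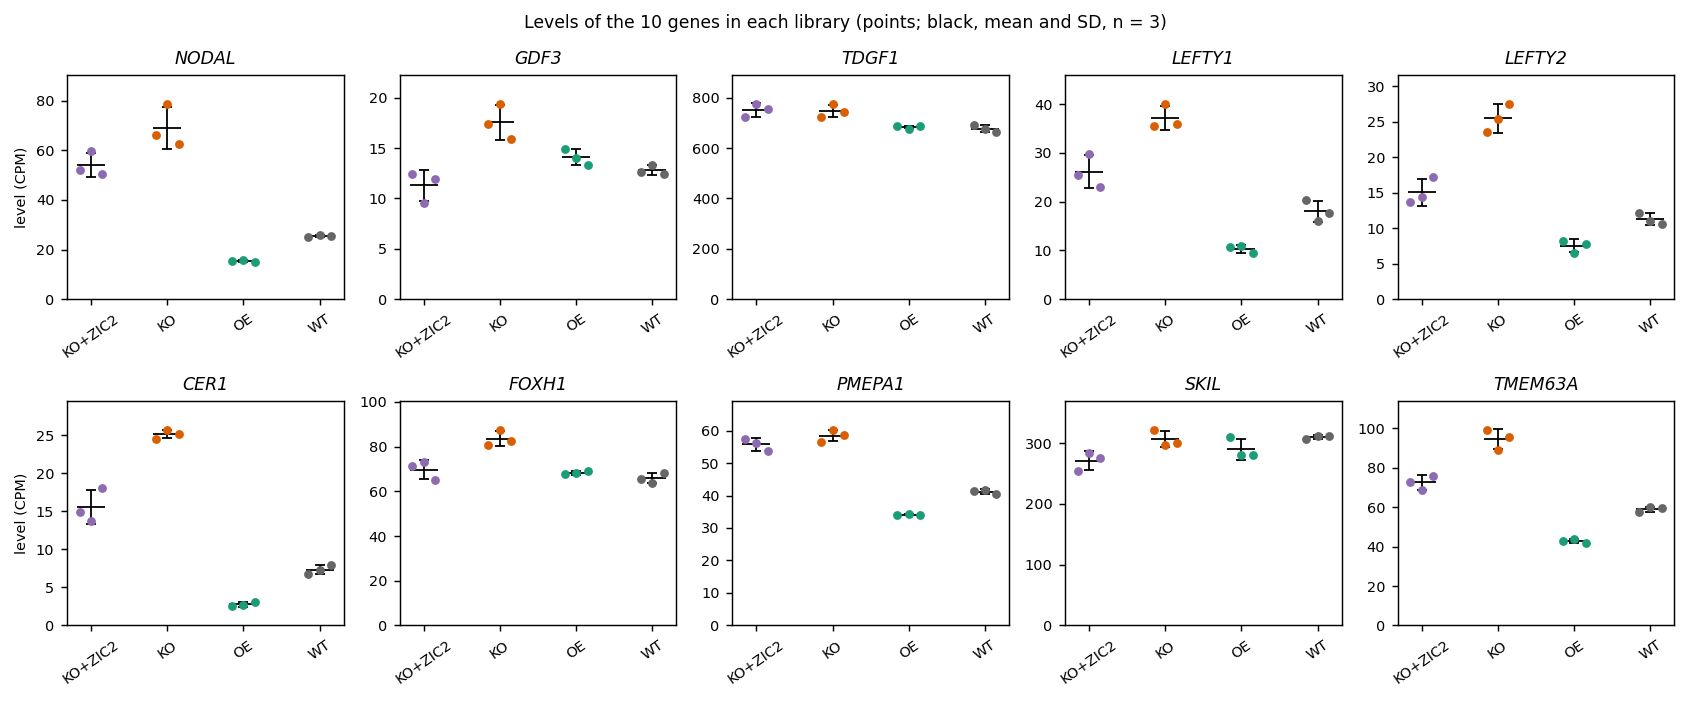
Level in CPM (linear axis from 0) of each of the 10 genes in every library, with 1 point a library and a black bar for the mean and SD of 3 libraries, in KO+ZIC2, KO, OE and WT from left to right. NODAL, LEFTY1, LEFTY2, CER1 and TMEM63A share an order of KO highest, then KO+ZIC2, WT and OE, with no overlap of groups. The means of PMEPA1 have the same order, but its KO and KO+ZIC2 libraries overlap. TDGF1 and SKIL change little.

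LEFTY1 and LEFTY2 are divergent TGF-beta family proteins that bind NODAL or its co-receptor and block signalling. In hg19 LEFTY1 lies at chr1:226073982-226076846 and LEFTY2 at chr1:226124298-226129192, both on the minus strand. Their coding sequences, 1098 bases each, are 97.2% identical, with 1067 of 1098 aligned positions the same.

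The deposited counts came from uniquely aligned reads, so reads that matched both genes equally well were counted for neither. How many reads this removed was not measured. In the longest protein-coding transcript of each, windows of 50 bases shared with another gene elsewhere made up 31.3% of LEFTY1 and 22.0% of LEFTY2. Absolute levels of the pair are therefore uncertain. LEFTY1 had 25.5, 29.8 and 23.1 CPM in KO+ZIC2 libraries and 35.6, 40.0 and 35.9 CPM in KO libraries. In OE libraries it had 10.8, 10.9 and 9.39 CPM, against 20.3, 16.0 and 17.7 CPM in WT libraries. As for NODAL, no library of 1 group overlapped another group. KO was 2.06-fold WT, a log2 difference of 1.04 ± 0.08 (SE), and OE was 0.573 times WT, a log2 difference of -0.80 ± 0.11 (SE). KO+ZIC2 was 0.706 times KO, a log2 difference of -0.50 ± 0.08 (SE). The log2 difference of KO+ZIC2 from WT was 0.54 ± 0.09 (SE), or 0.35 ± 0.08 once GC content and gene length were corrected for.

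LEFTY2 had 13.6, 14.4 and 17.2 CPM in KO+ZIC2 libraries and 23.5, 25.4 and 27.5 CPM in KO libraries. In OE libraries it had 8.24, 6.54 and 7.81 CPM, against 12.2, 10.99 and 10.6 CPM in WT libraries. Again the 4 groups did not overlap. KO was 2.25-fold WT, a log2 difference of 1.17 ± 0.09 (SE), and KO+ZIC2 was 0.593 times KO, a log2 difference of -0.75 ± 0.09 (SE), the largest ZIC2 difference among the 10 genes. OE was 0.672 times WT, a log2 difference of -0.57 ± 0.11 (SE), which was no longer called without WT replicate 1, OE replicate 2 or OE replicate 3. The log2 difference of KO+ZIC2 from WT was 0.42 ± 0.10 (SE), or 0.26 ± 0.10 after the GC and length correction. Per kilobase of exon, LEFTY1 stood at 2.49 ± 0.530 times LEFTY2 in KO+ZIC2, 2.07 ± 0.200 in KO, 1.96 ± 0.339 in OE and 2.25 ± 0.171 in WT libraries (SD, n = 3 each). The ranges of this ratio overlapped between all 4 groups.

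CER1 (chr9:14719732-14722715, minus strand) encodes Cerberus, a secreted cysteine knot protein that binds NODAL and BMP ligands. It showed the widest range of the 10 genes. Its libraries had 14.9, 13.7 and 18.0 CPM in KO+ZIC2 and 24.6, 25.7 and 25.2 CPM in KO. In OE it had 2.51, 2.72 and 3.09 CPM, on 46, 49 and 68 counts, against 6.76, 7.25 and 7.96 CPM in WT. The groups did not overlap, and the KO libraries lay within a narrow band. KO was 3.41-fold WT, a log2 difference of 1.77 ± 0.09 (SE). OE was 0.380 times WT, a log2 difference of -1.40 ± 0.14 (SE), and KO+ZIC2 was 0.619 times KO, a log2 difference of -0.69 ± 0.08 (SE). KO+ZIC2 remained 2.11-fold WT. The summed level per kilobase of LEFTY1, LEFTY2 and CER1 was 1.39 ± 0.129 times that of NODAL in KO+ZIC2 and 1.69 ± 0.165 times in KO, and it was 1.64 ± 0.0670 times in OE and 1.83 ± 0.131 times in WT (SD, n = 3 each). The KO range of 1.53 to 1.86 overlapped the WT range of 1.70 to 1.96, whereas the KO+ZIC2 range of 1.27 to 1.53 lay below it. The ratio of TDGF1 to NODAL per kilobase did not overlap between groups, at 13.4 ± 0.925 in KO+ZIC2, 10.5 ± 0.995 in KO, 42.8 ± 1.44 in OE and 25.6 ± 0.694 in WT libraries (SD, n = 3 each).

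FOXH1, on chromosome 8, encodes the forkhead protein through which SMAD2 and SMAD3 reach many NODAL target genes. It had 71.2, 73.1 and 65.1 CPM in KO+ZIC2 libraries and 80.8, 87.4 and 82.7 CPM in KO libraries. In OE it had 67.6, 68.0 and 69.0 CPM, against 65.7, 63.9 and 68.4 CPM in WT. Only the KO libraries stood clear of the others. KO was 1.26-fold WT, a log2 difference of 0.34 ± 0.05 (SE), which was 0.18 ± 0.04 after the GC and length correction. KO+ZIC2 was 0.837 times KO, a log2 difference of -0.26 ± 0.05 (SE). The log2 differences from WT of OE, 0.05 ± 0.05 (SE), and of KO+ZIC2, 0.08 ± 0.05 (SE), were not called, and both were below 0 after that correction. Exons of FOXH1 and of KIFC2 on the opposite strand share 385 bases, 17.6% of the FOXH1 length, and the library kit does not mark strand. KIFC2 had group means of 6.28 to 6.76 CPM and was called in no comparison.

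PMEPA1 (chr20:56223448-56286592, minus strand) encodes a membrane protein that TGF-beta signals induce and that sequesters SMAD2 and SMAD3. It had 57.5, 56.1 and 53.7 CPM in KO+ZIC2 libraries and 56.6, 60.1 and 58.5 CPM in KO libraries. OE libraries had 34.1, 34.4 and 34.0 CPM, against 41.5, 41.8 and 40.4 CPM in WT libraries. The 2 knockout groups overlapped each other and lay above WT, and OE lay below WT. KO was 1.41-fold WT, a log2 difference of 0.50 ± 0.05 (SE). OE was 0.829 times WT, a log2 difference of -0.27 ± 0.05 (SE), which was not called without OE replicate 3. KO+ZIC2 differed from KO by -0.06 ± 0.04 (SE) on the log2 scale and was not called, while it was 1.35-fold WT. PMEPA1 shares 368 exon bases, 6.67% of its length, with the antisense gene NKILA.

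SKIL (chr3:170075473-170114637, plus strand) encodes SnoN, a nuclear repressor of SMAD complexes that is itself a TGF-beta target. It had 254, 284 and 276 CPM in KO+ZIC2 libraries and 322, 297 and 300.2 CPM in KO libraries. OE libraries had 311, 280.1 and 280.0 CPM, against 307, 312 and 312 CPM in WT libraries. KO and OE each overlapped WT, and only the KO+ZIC2 libraries lay below those of KO and WT. The log2 difference of KO from WT was -0.02 ± 0.05 (SE), and that of KO+ZIC2 from KO was -0.18 ± 0.05 (SE). SKIL has the lowest GC content of the 10, 37.2%, at percentile 2.17 of the genes tested. After the GC and length correction its log2 difference of KO from WT was 0.21 ± 0.03 (SE) and was called, and that of KO+ZIC2 from WT was 0.04 ± 0.03 (SE), against -0.19 ± 0.05 (SE) without it. The direction of SKIL in KO+ZIC2 against WT therefore depended on this correction. In KO against WT, where the difference was near 0, its sign changed in 3 of 13 alternative settings. The ZIC2 difference was not called without KO replicate 1, without KO+ZIC2 replicate 1, or with only the 2 groups fitted.

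**Figure D2:**
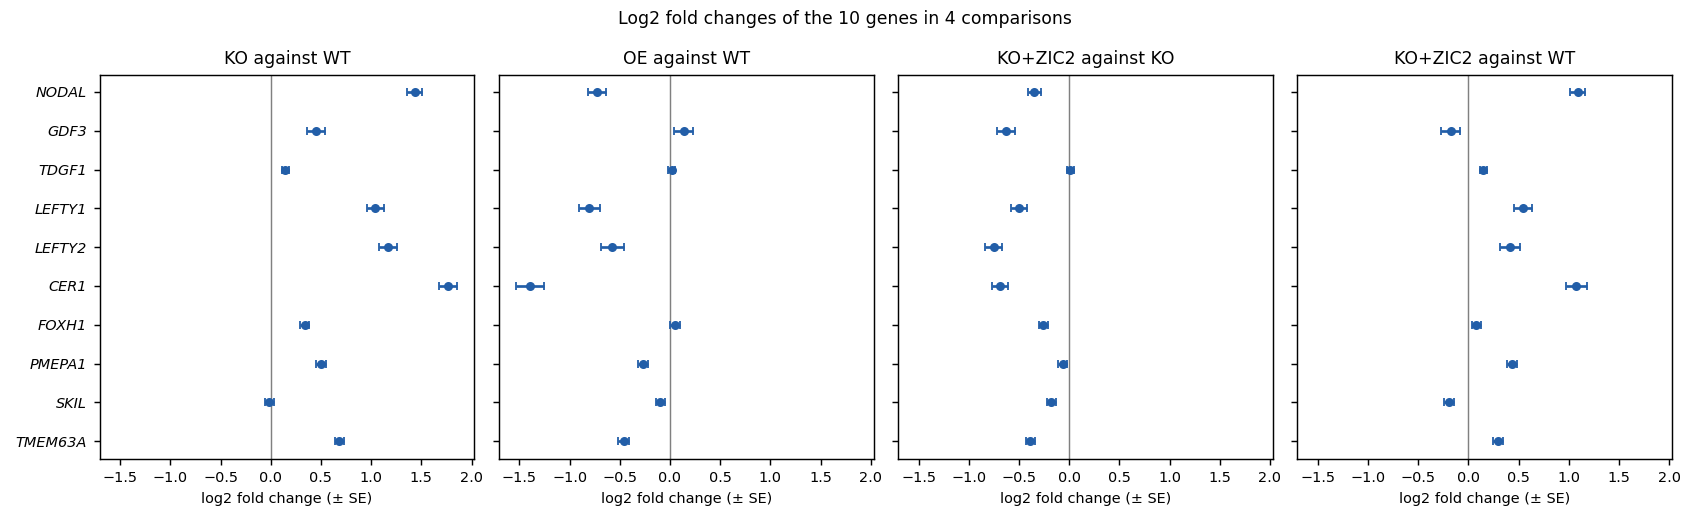
Log2 fold change with its SE (bars) of each of the 10 genes in the 4 comparisons, 1 panel a comparison, with 0 as the grey line. CER1 shows the largest difference of KO from WT, 1.77, and of OE from WT, -1.40, and LEFTY2 the largest of KO+ZIC2 from KO, -0.75.

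Over the 10 genes, 9 were called higher in KO than in WT, beside 20.0% of all genes tested called higher and 18.5% called lower. The median log2 difference of the 10 was 0.59, and that of all genes was -0.01. In OE against WT, 6 were called lower (NODAL, LEFTY1, LEFTY2, CER1, PMEPA1 and TMEM63A), beside 0.447% of all genes lower and 0.317% higher, with a median of -0.37 for the 10 and 0.00034 for all genes. In KO+ZIC2 against KO, 8 were called lower, all but TDGF1 and PMEPA1, beside 3.35% of all genes lower and 4.99% higher, with medians of -0.37 and -0.0011. In KO+ZIC2 against WT, 7 were called higher and SKIL was called lower, beside 20.3% of all genes higher and 17.3% lower, with medians of 0.36 and 0.0038. These counts come from the values that the list was chosen from, so nothing is read from them. The KO libraries enter the first comparison and, as the control, the third, and WT is shared by 3 comparisons, so their differences are not independent of each other. In bulk RNA, fewer cells of a type and less RNA per cell cannot be told apart.

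Per kilobase of exon, the WT levels ran from TDGF1 at 309 CPM per kilobase through SKIL at 42.7, FOXH1 at 30.2, TMEM63A at 13.3, NODAL at 12.04, LEFTY1 at 11.1, GDF3 at 10.2, PMEPA1 at 7.47 and CER1 at 6.08 to LEFTY2 at 4.91. The WT libraries of LEFTY1, at 9.84 to 12.5 CPM per kilobase, overlapped those of NODAL, at 11.9 to 12.2, and of GDF3, at 9.90 to 10.6. The other neighbours in this order did not overlap. In KO libraries NODAL reached 32.7 CPM per kilobase on average and stood above LEFTY1 at 22.9, TMEM63A at 21.3, CER1 at 20.9 and GDF3 at 14.0. In OE libraries NODAL stood at 7.29 and CER1, at 2.30, was the lowest of the 10.

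TMEM63A (chr1:226033233-226070420, minus strand) encodes a mechanically gated cation channel, and its midpoint lies 23.6 kb from that of LEFTY1. It had 73.0, 68.8 and 76.0 CPM in KO+ZIC2 libraries and 99.2, 88.9 and 95.8 CPM in KO libraries. In OE libraries it had 43.0, 43.7 and 42.0 CPM, against 57.5, 60.1 and 59.4 CPM in WT libraries. The groups did not overlap and had the same order as those of LEFTY1 and LEFTY2. KO was 1.61-fold WT, a log2 difference of 0.68 ± 0.05 (SE), OE was 0.726 times WT, a log2 difference of -0.46 ± 0.05 (SE), and KO+ZIC2 was 0.765 times KO, a log2 difference of -0.39 ± 0.05 (SE).

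The genes around this locus were tested, since they were not part of the list. MIXL1, however, also belongs to the mesendoderm genes and to the endoderm and mesendoderm markers given further below. Those lists were chosen with earlier results of these data known, so the p-value of MIXL1 gives no independent evidence. Within 500 kb of LEFTY1 or LEFTY2 lay 11 further genes that passed the filter, and in KO against WT 5 of them were called higher and SRP9 lower, beside 20.0% of all genes tested called higher and 18.5% lower. EPHX1, an epoxide hydrolase on the far side of TMEM63A, had 71.3 ± 3.75 CPM in KO and 55.2 ± 0.845 CPM in WT libraries (SD, n = 3 each), a log2 difference of 0.36 ± 0.05 (SE, edgeR adjusted p = 4.42e-06). Its exons overlap those of TMEM63A by 30 bases. Its difference was smaller than those given for LEFTY1, LEFTY2 and TMEM63A, although the sizes were not tested against each other.

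MIXL1, a homeobox gene of mesendoderm that is also a known NODAL target, was low, with 2.06 ± 0.251 CPM in KO and 1.16 ± 0.176 CPM in WT libraries (SD, n = 3 each). Its log2 difference was 0.80 ± 0.25 (SE, edgeR adjusted p = 0.0147), and it was not called without WT replicate 1. PARP1, a DNA repair enzyme, had a log2 difference of 0.13 ± 0.03 (SE, edgeR adjusted p = 0.00168). SDE2, a replication and splicing factor, had one of 0.19 ± 0.06 (SE, edgeR adjusted p = 0.00986), which was not called without KO replicate 3 or WT replicate 3. SRP9, a subunit of the signal recognition particle, fell by 0.23 ± 0.04 (SE, edgeR adjusted p = 5.92e-05) on the log2 scale in KO. DNAH14, LBR, ENAH, ACBD3 and LIN9 were not called in KO against WT. H3F3A, which lies in the same region, spans nearly the same bases as H3F3AP4, held 1 count over all 12 libraries and was not tested.

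In OE against WT none of these 11 neighbours was called by edgeR or by DESeq2, beside 0.317% of all genes higher and 0.447% lower. At such low shares, a count of 0 says little about them. Unadjusted p was under 0.05 for 1630 of all 15437 genes and for 3 of the 11. The closest to the threshold was EPHX1, with a log2 difference of -0.21 ± 0.05 (SE, edgeR adjusted p = 0.0602). In KO+ZIC2 against KO 1 of the 11 was called lower and none higher, beside 3.35% of all genes lower and 4.99% higher. In KO+ZIC2 against WT, EPHX1 was 0.31 ± 0.05 higher on the log2 scale (SE, edgeR adjusted p = 4.62e-05), ACBD3 was called higher, though not in 7 of 13 alternative settings, and DNAH14, ENAH, SRP9 and LIN9 were called lower. Of these last 4, only SRP9 kept its call after the GC and length correction, and the difference of ENAH turned positive. Over all genes, 20.3% were called higher and 17.3% lower in that comparison.

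**Figure D3:**
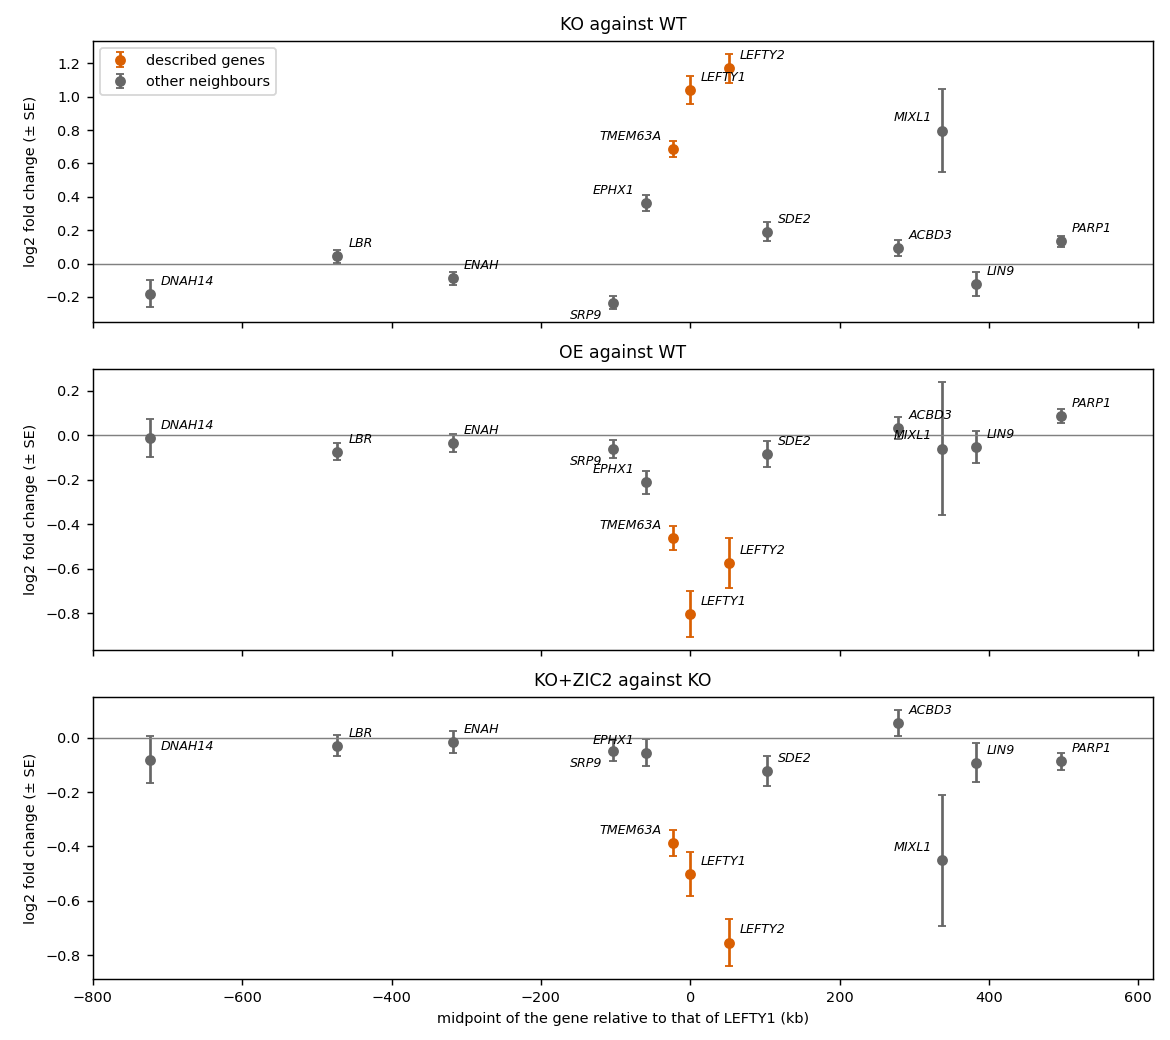
Log2 fold change with its SE (bars) of LEFTY1, LEFTY2, TMEM63A and 10 of their 11 tested neighbours against the distance of their midpoints from that of LEFTY1 in kb, in KO against WT, OE against WT and KO+ZIC2 against KO. LEFTY1, LEFTY2 and TMEM63A (orange) lie furthest from 0 in OE, whereas MIXL1 (grey), with a wide SE, lies beyond TMEM63A but short of LEFTY1 and LEFTY2 in KO against WT, at 0.80, and in KO+ZIC2 against KO, at -0.45.

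Around all 10 genes there were 87 tested neighbours within 500 kb. In KO against WT 27 were called higher and 11 lower, beside 20.0% and 18.5% of all genes tested, with a median log2 difference of 0.09. In OE against WT none was called by edgeR or DESeq2, beside 0.317% of all genes higher and 0.447% lower, with a median of -0.0046. Unadjusted p was under 0.05 for 1630 of all 15437 genes and for 14 of the 87. At such low shares of calls, a count of 0 says little about these neighbours. With ZIC2 2 were called higher and 4 lower than in KO, beside 4.99% and 3.35% of all genes, with a median of -0.03. Among the 12 tested neighbours of NODAL, 5 were higher and 1 lower in KO. Among the 4 of CER1, 1 was higher and 1 lower. The loci were uneven, since the 30 tested neighbours of FOXH1 held 13 of the higher and 2 of the lower calls. By contrast, 0 were higher and 4 lower among the 8 of SKIL, and 0 higher and 2 lower among the 9 of GDF3.

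A further 63 genes of the NODAL, activin and TGF-beta pathways were examined by role, and 52 passed the filter. The role lists were also chosen with earlier results of these data known. Their counts and p-values therefore describe these data and give no independent evidence. GSC, T, SOX17, GATA4, GATA6 and HHEX, which mark mesendoderm or endoderm, were among the 11 that did not. In KO against WT 21 of the 52 rose and 7 fell, beside 20.0% of all genes tested called higher and 18.5% lower, with a median log2 difference of 0.17. In OE against WT 5 fell and none rose, beside 0.447% of all genes lower and 0.317% higher, with a median of -0.06. With ZIC2 6 rose and 5 fell relative to KO, beside 4.99% higher and 3.35% lower, with a median of -0.06. In KO+ZIC2 against WT 23 rose and 8 fell, beside 20.3% higher and 17.3% lower, with a median of 0.16. The counts of each role list that follow stand beside these same shares of all genes. Unadjusted p was under 0.05 for 1630 of all 15437 genes in OE against WT and for 3079 in KO+ZIC2 against KO.

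Of the 6 other ligands tested, INHBA and TGFB1 rose and GDF11 fell in KO. INHBA, which encodes the subunit of activin A, had 6.52, 7.90 and 6.90 CPM in KO libraries, against 4.62, 5.23 and 5.48 CPM in WT libraries, a log2 difference of 0.45 ± 0.12 (SE, edgeR adjusted p = 0.00366). TGFB1 had 16.1, 15.9 and 16.3 CPM in KO, against 11.7, 10.3 and 10.8 CPM in WT, a log2 difference of 0.56 ± 0.08 (SE, edgeR adjusted p = 6.04e-06). GDF11 fell by 0.17 ± 0.07 on the log2 scale (SE, edgeR adjusted p = 0.0485), a call that 8 of 13 alternative settings did not keep. No ligand of this list was called in OE or in the ZIC2 comparison with KO by edgeR or DESeq2, with 1 and 3 at an unadjusted p under 0.05.

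Among 6 processing and extracellular genes, FURIN, PCSK5 and BAMBI rose in KO. The convertases FURIN and PCSK5 cleave precursors of TGF-beta family members. FURIN had 65.3, 61.3 and 62.1 CPM in KO+ZIC2 libraries and 49.1, 48.3 and 47.8 CPM in KO libraries, and WT libraries had 34.5, 32.0 and 31.7 CPM. It was thus higher in KO than in WT by 0.57 ± 0.05 on the log2 scale (SE, edgeR adjusted p = 6.59e-09) and higher again with ZIC2 than in KO by 0.38 ± 0.05 (SE, edgeR adjusted p = 3.74e-06). PCSK5 had 29.4, 27.3 and 30.1 CPM in KO+ZIC2 and 38.7, 36.2 and 40.5 CPM in KO, and WT libraries had 22.1, 21.9 and 23.9 CPM. It rose by 0.77 ± 0.06 in KO on the log2 scale (SE, edgeR adjusted p = 3.75e-09) and fell by 0.41 ± 0.06 with ZIC2 (SE, edgeR adjusted p = 6.69e-05). The decoy receptor BAMBI rose by 0.58 ± 0.06 in KO (SE, edgeR adjusted p = 9.83e-08) and fell by 0.22 ± 0.06 with ZIC2 (SE, edgeR adjusted p = 0.0165), the ZIC2 call being lost in 4 of 13 alternative settings.

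Of 8 receptors, ACVR1B and TGFBR1 fell in KO and none rose, whereas with ZIC2 2 rose relative to KO and 0 fell. ACVR1B, the type I receptor ALK4 of NODAL, had 25.1, 23.4 and 24.8 CPM in KO libraries, against 28.1, 28.5 and 28.4 CPM in WT libraries, a log2 difference of -0.21 ± 0.06 (SE, edgeR adjusted p = 0.00734). With ZIC2 it rose by 0.20 ± 0.06 relative to KO (SE, edgeR adjusted p = 0.0396), a call that 12 of 13 alternative settings did not keep. TGFBR1 had 95.9, 86.2 and 88.7 CPM in KO, against 105, 108 and 103 CPM in WT, a log2 difference of -0.22 ± 0.04 (SE, edgeR adjusted p = 0.00043), which was not called after the GC and length correction. Of 15 SMADs, SMAD regulators and cofactors, 6 rose and 4 fell in KO. The inhibitory SMAD7 rose to 27.96, 27.98 and 28.9 CPM in KO, against 21.2, 20.9 and 21.9 CPM in WT, a log2 difference of 0.40 ± 0.06 (SE, edgeR adjusted p = 1.14e-05). The signal transducer SMAD3 rose by 0.33 ± 0.06 (SE, edgeR adjusted p = 0.000153) on the log2 scale, and the ubiquitin ligase NEDD4L by 0.19 ± 0.04 (SE, edgeR adjusted p = 0.00092). DRAP1, a corepressor that binds FOXH1, rose by 0.33 ± 0.05 (SE, edgeR adjusted p = 3.63e-05), which was not called after the GC and length correction. SMAD2 did not pass the test. In OE no processing gene, receptor or SMAD of these lists was called by edgeR or DESeq2, with 2, 1 and 4 at an unadjusted p under 0.05, and with ZIC2 no SMAD was called by either, with 3 at an unadjusted p under 0.05.

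Among 7 mesendoderm genes tested, 5 rose in KO and none fell. FGF8, a growth factor of the primitive streak, had 4.26, 6.18 and 5.80 CPM in KO+ZIC2 and 7.41, 7.90 and 7.97 CPM in KO, and WT libraries had 2.72, 2.45 and 2.81 CPM. It was 2.89-fold WT in KO, a log2 difference of 1.53 ± 0.14 (SE, edgeR adjusted p = 1.18e-08). WNT3 rose by 0.74 ± 0.14 (SE, edgeR adjusted p = 0.000195) and LHX1, at 1.14, 1.05 and 1.17 CPM in KO against 0.693, 0.533 and 0.333 CPM in WT, by 1.14 ± 0.30 (SE, edgeR adjusted p = 0.00465). With ZIC2, FGF8 fell by 0.52 ± 0.12 on the log2 scale (SE, edgeR adjusted p = 0.0064), a call lost without KO+ZIC2 replicate 1. EOMES, a T-box gene of mesendoderm, stood at 1.20 CPM in KO+ZIC2 and 0.554 CPM in KO on average and was not called in that comparison (edgeR adjusted p = 0.0502). Against the WT mean of 0.654 CPM it was called higher in KO+ZIC2, with a log2 difference of 0.88 ± 0.35 (SE, edgeR adjusted p = 0.0476), a call that 10 of 13 alternative settings did not keep.

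Of 10 general TGF-beta response genes, 5 rose in KO and 4 fell in OE. TAGLN, an actin-binding protein, had 436, 574 and 505 CPM in KO and 113, 124 and 122 CPM in OE, and WT libraries had 185, 157 and 169.5 CPM. It rose by 1.56 ± 0.07 in KO on the log2 scale (SE, edgeR adjusted p = 4.41e-13) and fell by 0.51 ± 0.08 in OE (SE, edgeR adjusted p = 0.000734). CTGF, a matrix-associated protein, rose by 0.89 ± 0.05 in KO (SE, edgeR adjusted p = 9.98e-13), fell by 0.29 ± 0.05 in OE (SE, edgeR adjusted p = 0.00159) and fell by 0.42 ± 0.04 with ZIC2 (SE, edgeR adjusted p = 6.55e-07). The cell cycle inhibitor CDKN2B, at 0.629, 1.79 and 1.12 CPM in KO against 0.347, 0.427 and 0.286 CPM in WT, rose by 1.58 ± 0.39 (SE, edgeR adjusted p = 0.00278). CDKN1A, another cell cycle inhibitor, fell in OE by 0.51 ± 0.12 on the log2 scale (SE, edgeR adjusted p = 0.0363), a call lost without WT replicate 1 or any 1 of the 3 OE replicates. With ZIC2, CTGF was the only gene of this list that fell relative to KO, while CDKN1A and KLF10 rose. CDKN1A rose by 0.43 ± 0.10 (SE, edgeR adjusted p = 0.00469), which was not called without KO+ZIC2 replicate 1, and KLF10, a transcription factor that TGF-beta induces, rose by 0.47 ± 0.07 (SE, edgeR adjusted p = 4.76e-05).

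**Figure D4:**
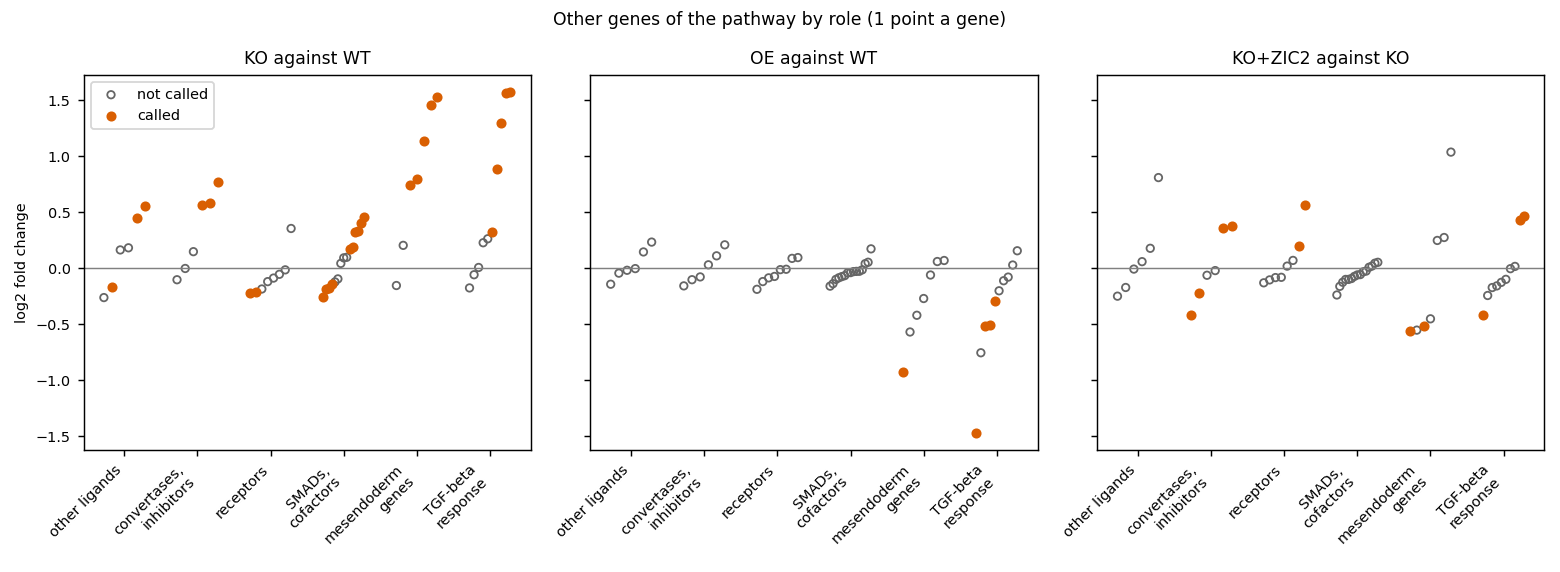
Log2 fold change of the 52 further pathway genes, 1 point a gene, by role list, in KO against WT, OE against WT and KO+ZIC2 against KO, with filled points for genes called at an adjusted p under 0.05. In KO the mesendoderm and TGF-beta response genes reach 1.53 and 1.58, whereas the receptors and SMADs stay within 0.46 of 0.

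Markers of other cell types were examined beside these values. Summed over 10 endoderm and mesendoderm markers, levels were 12.01 to 13.9 CPM in KO+ZIC2, 11.6 to 13.5 in KO, 5.71 to 8.40 in OE and 8.16 to 9.07 in WT libraries, with 4 of 10 passing the filter and SOX17 at 0 in WT. Of those 4, 2 rose in KO against WT. Summed over 8 neuroectoderm markers, most of it NES, they were 464 to 518 CPM in KO+ZIC2, 446 to 491 in KO, 347 to 354 in OE and 349.7 to 365 in WT libraries, with NEUROG2 at 0 in OE, and of 6 tested 2 rose and 2 fell in KO. Over the 7 of 8 trophoblast and amnion markers that the table held, they were 10.2 to 10.4 CPM in KO+ZIC2, 7.57 to 9.42 in KO, 8.35 to 8.59 in OE and 6.10 to 6.45 in WT libraries, with HAND1 at 0 in WT, and 2 of 3 tested rose in KO. Most of this sum was KRT7, which averaged 6.80 CPM in KO+ZIC2, 5.0 in KO, 7.18 in OE and 4.90 in WT. Summed over 8 fibroblast markers, mainly COL1A1, COL1A2 and THY1, which stem cells also express, they were 618 to 667 CPM in KO+ZIC2, 539 to 583 in KO, 492 to 506 in OE and 490.1 to 504 in WT libraries, with DCN at 0 in OE and WT and LUM at 0 in KO+ZIC2 and OE, and 4 of 5 tested rose in KO. These counts in KO against WT stand beside 20.0% of all genes called higher and 18.5% lower. In KO+ZIC2 against WT 20.3% of all genes were higher and 17.3% lower. There 3 of 4 endoderm and mesendoderm markers and 3 of 3 trophoblast and amnion markers were higher. Of 6 neuroectoderm markers 1 was higher and 2 lower, and of 5 fibroblast markers 3 were higher and 1 lower. The part of such cells in the values of the NODAL genes was not tested.

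The genes whose pattern over the 12 libraries was most like that of NODAL were sought among tested genes outside the list with a mean of at least 5 CPM. Symbols that are clone or locus names and genes on chromosome Y were left out. Likeness was the root mean square difference of log2 CPM after each gene was centred on its mean. The closest were PLK2, a polo-like kinase, at 0.12, CAV1, which encodes the caveolar protein caveolin, at 0.14, TAGLN at 0.18, EMP3, a membrane protein, at 0.20 and ACTC1, cardiac actin, at 0.20. PLK2 averaged 34.2 ± 1.13 CPM in KO+ZIC2, 46.8 ± 1.85 in KO, 10.6 ± 0.362 in OE and 17.6 ± 1.24 in WT libraries (SD, n = 3 each). CAV1 averaged 47.3 ± 1.31 CPM in KO+ZIC2, 56.4 ± 5.81 in KO, 12.5 ± 0.723 in OE and 19.4 ± 1.69 in WT libraries (SD, n = 3 each). Of the other 9 genes of the list, LEFTY1 was closest to NODAL at 0.24, followed by LEFTY2 at 0.35, CER1 at 0.39 and TMEM63A at 0.48, while SKIL was furthest at 0.87. All 5 of these outside genes thus lay closer to NODAL than LEFTY1 did, on 12 libraries that share their groups and depth. They were picked as the smallest differences of all genes searched, so their closeness follows in part from that choice.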

How the data were processed

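Poly(A) RNA of 12 H1 libraries, 4 groups of 3, was measured by RNA-seq. Whole-number counts, not normalized, are what the authors deposited for each gene, with exon positions and summed exon lengths for each gene. The submitters' processing notes name STAR, featureCounts, DESeq2 and hg19 but no version or setting. Per the file headers counting used uniquely aligned reads, which can lower the counts of near-identical genes. The kit named in the labels does not mark strand.

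The 10 genes and all gene lists were chosen with earlier results of these data known. Counts were fitted with edgeR 4.0.16 in R 4.3.3 (filterByExpr, TMM, quasi-likelihood test, group as the only term, all 12 libraries, 8 residual degrees of freedom), and p-values were adjusted by Benjamini-Hochberg over the 15437 genes tested, within each comparison. SE is the log2 fold change divided by the root of the F statistic. Within groups, the chi-square per gene between libraries was 1.38 to 1.48 in OE and 1.42 to 2.83 in WT. It was 2.99 to 3.14 in KO+ZIC2 and 3.48 to 10.7 in KO. All lay above counting error, and each library was counted as a replicate. The fit shared 1 estimate of the spread over the groups, so the SE does not show this difference between them. CPM values use the TMM factors, and levels per kilobase divide by the deposited length.

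The text names all 10 genes, the pathway genes called in KO or OE up to the 4 smallest adjusted p of each role list, every tested neighbour of LEFTY1 and LEFTY2, the 5 genes most like NODAL, ZNF263 and ZIC2, except genes that are counted but not reported by name here. CDKN1A, EOMES, KLF10, SMAD2, TDGF1P3, KIFC2 and H3F3A were named after their values were seen. Alternatives were DESeq2 1.42.0, no TMM factors, no filter, a replicate block, a GC and length correction with and without the block, only the 2 groups compared, and leaving out each library. GC content came from GENCODE release 29 (95.2% of tested genes had a value). Promoter sequences came from RefSeq, and coding identity and shared windows from GENCODE, on GRCh38, while gene positions are those of the deposited table in hg19.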

Additional observations from a re-analysis of the deposited data

How the results depend on the processing

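Over 13 alternatives a comparison, the calls of the 10 genes differed only for SKIL, LEFTY2 and PMEPA1, as given beside their values. SKIL in KO+ZIC2 against WT reversed to 0.042 after the GC and length correction and to 0.042 with the replicate block added. TGFBR1 and ENAH in that comparison reversed to 0.049 and 0.056 after the correction and to 0.049 and 0.055 with the block added. Of 57 log2 differences of named genes outside the list, 38 kept their call in every alternative. In OE against WT, 118 genes were called, and 220 without the filter, 237 after the GC and length correction, 236 with the block added, 431 with only the 2 groups and 50 to 77 when a library was left out. Its pathway genes numbered 5, and 8 with only the 2 groups and 3 to 5 without a library, the 3 being without OE replicate 3. Its neighbours numbered 0, and 1 without the filter, 1 with the replicate block, 2 after the correction, 2 with the block added, 4 with only the 2 groups and 0 without any 1 library. With ZIC2 added to KO, 1288 genes were called, and 1976 after the correction, 1960 with the block added and 842 to 1476 without a library, the 842 being without KO+ZIC2 replicate 1. Its pathway genes numbered 11, and 6 to 12 without a library, with 6 without KO+ZIC2 replicate 1 and 7 without KO+ZIC2 replicate 2. Its neighbours numbered 6, and 11 without the filter, 12 after the correction, 12 with the block added, 3 with only the 2 groups and 4 to 7 without a library. In KO against WT the counts without a library were 4782 to 5877 genes, 25 to 28 pathway genes and 31 to 39 neighbours, and in KO+ZIC2 against WT 4549 to 5486, 25 to 29 and 25 to 35. The cause of these changes was not tested. Without TMM factors the split of higher to lower calls was 2614 to 3615 in KO against WT, instead of 3095 to 2856, and 2632 to 3315 in KO+ZIC2 against WT, instead of 3126 to 2678. Each library's deviations from its group mean were correlated between groups. Same-numbered libraries gave -0.11 to 0.11 and differently numbered ones -0.102 to 0.147. No pairing by replicate number was seen, which does not settle whether the libraries were paired. The replicate block gave 5845, 108, 1244 and 5691 calls in KO against WT, OE against WT, KO+ZIC2 against KO and KO+ZIC2 against WT. Low counts limit LHX1, MIXL1, CDKN2B and EOMES, and CER1 in OE. Leaving out a library leaves 2 in its group, so those counts also rest on fewer samples.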
